A study of Mus musculus with 3 samples.

Results

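Gem, Egr4, Arc, Nr4a1, Egr1, Rasd1 and Tmem158 are 7 genes whose mRNA is raised in many excitable and endocrine cells by depolarisation, calcium entry, cAMP or RAS-ERK signalling. They were chosen by their levels and joint detection in the melanotrophs of these same libraries, among 17775 genes with a row in any of the 3 count tables (15527 in all of them). The levels and joint detections below are therefore descriptions, and none of them carries a test. The libraries were droplet 3′ single-cell RNA sequencing of the intermediate lobe, dissected from pituitaries of mice aged 3 months and dissociated warm with papain before capture. The WT library came from Sox9iresCreERT2/+ mice, the P27NULL library from Sox9iresCreERT2/+;p27-/- mice, and the S2CK library from Sox9iresCreERT2/+;Sox2fl/+;p27-/- mice. All mice thus carried the tamoxifen-inducible Cre recombinase driven by Sox9, which acts in pituitary stem cells, and both mutants lacked p27, the cyclin-dependent kinase inhibitor encoded by Cdkn1b. Tamoxifen was given by gavage at 4 weeks of age according to the sample labels, whereas the study's account of its results places Cre induction at birth. Each genotype is 1 library of pooled animals, so litter, pool, sex and preparation cannot be told apart from genotype, and every interval given below covers counting error only.

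Melanotrophs are the hormone cells of the intermediate lobe. They cleave pro-opiomelanocortin (POMC) to α-melanocyte-stimulating hormone with the help of prohormone convertase 2, and hypothalamic dopamine holds them back through the D2 receptor and Gi proteins. Calcium entering through voltage-gated channels, cAMP acting through protein kinase A on CREB, and ERK acting on serum response factor switch on immediate early genes within minutes, without new protein synthesis. The 7 genes stand at several levels of that response. Egr1 and Egr4 are zinc-finger transcription factors, and Nr4a1 (Nur77) is an orphan nuclear receptor that acts on the Pomc promoter in pituitary cells. Gem and Rasd1 are small GTPases of the Ras superfamily: Gem binds calcium channel β subunits and lowers channel activity, and Rasd1 (Dexras1) is induced by glucocorticoids and acts on G protein signalling. Arc forms capsid-like particles and works with the endocytic machinery at synapses, and Tmem158 is a membrane protein named for its rise when RAS is active.

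The sequence just upstream of a gene start is where CREB would bind, and the reference promoter table used here held Egr4 and Nr4a1 of the 7. Both are shown because they carry repeated copies of CGTCA, the core of the cAMP response element, which are in capitals. The runs are 250 bases directly before an annotated start, from RefSeq on GRCm38.p6, written 5′ to 3′ along the strand of the gene. The Egr4 run lies at chr6:85513590-85513839 on the minus strand, and the Nr4a1 run at chr15:101266596-101266845 on the plus strand.
Egr4: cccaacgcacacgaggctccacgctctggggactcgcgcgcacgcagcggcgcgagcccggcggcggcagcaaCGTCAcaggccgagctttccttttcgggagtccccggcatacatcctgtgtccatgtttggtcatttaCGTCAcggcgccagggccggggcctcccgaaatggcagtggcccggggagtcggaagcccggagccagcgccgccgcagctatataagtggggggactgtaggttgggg
Nr4a1: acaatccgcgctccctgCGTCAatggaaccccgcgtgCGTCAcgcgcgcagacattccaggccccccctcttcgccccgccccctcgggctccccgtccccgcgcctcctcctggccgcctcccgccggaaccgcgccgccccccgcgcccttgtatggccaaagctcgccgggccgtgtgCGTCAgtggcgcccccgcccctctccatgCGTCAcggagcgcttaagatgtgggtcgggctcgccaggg
The motif was searched on both strands as CGTCA or TGACG, and overlapping matches were each counted. It occurred 2 times before Egr4 and 4 times before Nr4a1, each time as CGTCA. Of 32851 RefSeq promoter windows of the same length, from 27025 genes, 17.8% held at least 1 match, 3.90% held at least 2 and 0.137% held at least 4. A letter match is a description and does not show that a factor is bound there.

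Melanotrophs were taken as cells with Pomc at 5% or more of their UMIs (unique molecular identifiers, each 1 captured mRNA molecule) and 2 or more UMIs of Pcsk2, the gene of prohormone convertase 2. The rule kept 1245 of 2020 cells in WT, 3481 of 4153 in P27NULL and 2968 of 3488 in S2CK, 7694 of 9661 in all. The name was checked on marker genes that the rule did not use. Pax7, the transcription factor that specifies melanotrophs, was at 180, 225 and 172 counts per 1000000 UMIs (CPM) in melanotrophs of WT, P27NULL and S2CK, against 22.2, 95.1 and 84.1 CPM in all other cells. Oacyl, another melanotroph marker, was at 587, 883 and 497 CPM, against 40.7, 348 and 285 in all other cells. Megf11, Rbfox3, Esm1, Drd2 and Tbx19 were also higher in melanotrophs of each library. In S2CK the gap was small for Drd2 (108 against 82.8 CPM) and Tbx19 (60.4 against 56.5). A cluster left without a type name, with the corticotroph marker Crhr1 among its leading genes, held 17.4%, 4.42% and 1.75% of WT, P27NULL and S2CK melanotrophs. The melanotrophs held 6169078, 13431765 and 16921650 UMIs in WT, P27NULL and S2CK, a median of 4298, 2875 and 5060.5 per cell. Their median share of mitochondrial UMIs was 5.34%, 4.76% and 7.56%, and 2 to 4 barcodes were shared by each pair of libraries. Cdkn1b itself was at 33.2 CPM in WT, 29.3 in P27NULL and 16.8 in S2CK melanotrophs. Its 3′ UMIs cannot show which part of the gene is deleted, so they do not check the genotype labels. The sexes also differed. WT was described as male and its table has no row for Xist, the RNA of the inactive X chromosome, whereas 2872 S2CK melanotrophs (96.8%) had an Xist UMI and 0 had a Y-linked UMI. The S2CK pool was described as being of both sexes, so that library departs from its description. P27NULL held 647 melanotrophs (18.6%) with an Xist UMI but without a Y-linked one, and 2820 that lacked Xist. The level and ratio of each of the 7 genes are therefore also given for P27NULL cells with and without Xist, the nearest to a comparison within 1 sex that these libraries allow. The P27NULL cells with Xist were deeper, with a median of 3797 UMIs against 2710.

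Egr1, the most studied of the immediate early zinc-finger genes, was at 186 CPM in WT melanotrophs (95% Poisson interval 176 to 197, 1149 UMIs), 155 in P27NULL (148 to 162, 2079 UMIs) and 144 in S2CK (139 to 150, 2442 UMIs). The P27NULL cells with Xist were at 183 CPM and those without at 147. WT was thus the highest of the libraries and the P27NULL cells with Xist were level with it, since the log2 ratio of those cells to WT was -0.02 (95% interval -0.17 to 0.13). A UMI of Egr1 was seen in 49.9%, 36.1% and 45.7% of WT, P27NULL and S2CK melanotrophs. After every cell was thinned to 1500 UMIs these shares were 21.7%, 20.5% and 18.5%, closer to each other than the raw shares.

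Egr4, its relative with the narrower distribution, was at 88.2 CPM in WT (80.9 to 95.9), 50.1 in P27NULL (46.4 to 54.0) and 37.2 in S2CK (34.4 to 40.2). The intervals of the libraries did not overlap, in the order WT, P27NULL, S2CK. P27NULL cells with Xist held 71.8 CPM and those without 44.0, and again WT was the highest. At 1500 UMIs 10.6% of WT, 6.17% of P27NULL and 4.92% of S2CK cells had an Egr4 UMI.

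Nr4a1 showed the widest gap between WT and S2CK, with 133 CPM in WT (124 to 142), 58.6 in P27NULL (54.6 to 62.8) and 21.9 in S2CK (19.7 to 24.2). In P27NULL the cells with Xist were at 89.03 CPM and those without at 50.2, both between the other libraries. The S2CK level was 6.07-fold lower than WT. Cells with an Nr4a1 UMI at 1500 UMIs made up 14.8% of WT, 8.48% of P27NULL and 3.26% of S2CK melanotrophs.

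Gem, the inhibitor of voltage-gated calcium channels (chr4:11704447-11714993, GRCm38.p6), was at 272 CPM in WT (259 to 285), 88.6 in P27NULL (83.6 to 93.8) and 58.6 in S2CK (55.0 to 62.3). It split the P27NULL library most strongly: 197 CPM in cells with Xist (182 to 214) and 58.3 in those without (53.8 to 63.2). The cells without Xist were therefore at the level of S2CK, while those with Xist lay nearer to WT. A Gem UMI was found in 55.7% of WT melanotrophs, and at 1500 UMIs in 30.8% of WT, 11.01% of P27NULL and 8.61% of S2CK cells.

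Rasd1, the other GTPase (chr11:59963181-59964944), had a different order: 40.8 CPM in WT (36.0 to 46.2), 48.8 in P27NULL (45.1 to 52.6) and 18.1 in S2CK (16.2 to 20.3). WT and P27NULL were close and S2CK stood below both. Within P27NULL, cells with Xist were at 61.6 CPM and cells without at 45.2. Arc (chr15:74669081-74672570) had the same shape, with 55.6 CPM in WT (49.9 to 61.8), 60.4 in P27NULL (56.3 to 64.7) and 24.1 in S2CK (21.8 to 26.6). Its P27NULL cells with Xist held 85.6 CPM, above WT, and those without 53.6. At 1500 UMIs the shares of cells with Arc were 7.48%, 9.02% and 3.32%, and those with Rasd1 4.52%, 6.23% and 2.51%, in WT, P27NULL and S2CK.

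Tmem158, the membrane protein linked to RAS (chr9:123259057-123260789), ran against the rest between the mutants. It was at 416 CPM in WT (400 to 432), 279 in P27NULL (270 to 288) and 456 in S2CK (446 to 466), so that P27NULL was the lowest library and S2CK the highest. P27NULL cells with Xist were at 309 CPM and those without at 271, both below WT. It was also the member with the most UMIs, 14030 of the 30157 UMIs of all 7 genes in melanotrophs, and it therefore weighs heavily in their sum. That sum was 1191 CPM in WT, 740 in P27NULL and 760 in S2CK, and 998 and 670 CPM in P27NULL cells with and without Xist.

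**Figure D1:**
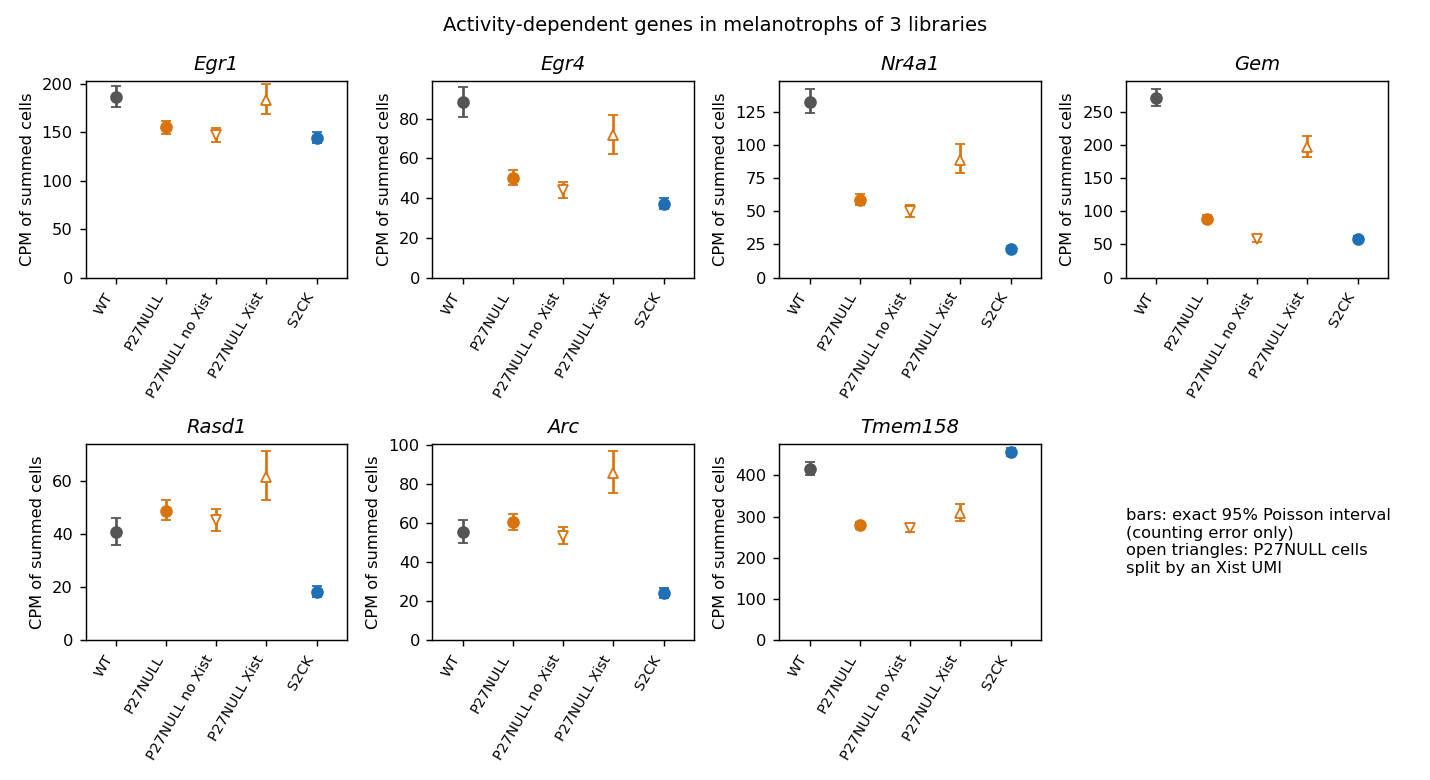
CPM of the summed melanotrophs (vertical axis, from 0) for each gene in WT (grey), P27NULL (orange) and S2CK (blue), with the P27NULL cells split by Xist as open triangles; bars are exact 95% Poisson intervals for counting error. Gem is at 272 CPM in WT and at 88.6 and 58.6 in the mutants, with P27NULL cells carrying Xist at 197, whereas Tmem158 is lowest in P27NULL at 279.

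The comparison of P27NULL with WT asks how the genes stand in melanotrophs that lack p27. On the log2 scale Gem was lower in P27NULL by 1.62 (log2 ratio -1.62, interval -1.73 to -1.51), a 3.07-fold difference, and Nr4a1 was at -1.18 (-1.32 to -1.04). Egr4 was at -0.82, Tmem158 at -0.58 and Egr1 at -0.27, all with intervals below 0. Rasd1 was at 0.26 (0.04 to 0.47), and Arc at 0.12 with an interval from -0.06 to 0.31 that holds 0. The median of the 7 log2 ratios was -0.58, against 0.08 for the 11538 genes with at least 50 UMIs in the compared sums. Gem and Nr4a1 were 2-fold or more lower, as were 0.667% of all those genes, and 0 members were 2-fold or more higher, as were 1.77% of genes. Only 25 genes had a lower ratio than Gem and 55 a lower ratio than Nr4a1. Since the genes were chosen by results of these libraries, nothing is read from those shares. Thinning every cell to 1500 UMIs took Nr4a1 to -0.87, inside 2-fold, and left Gem as the member past it.

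Against WT, P27NULL cells without Xist gave larger gaps: Gem at -2.22, Nr4a1 at -1.40, Egr4 at -1.002 and Egr1 at -0.34. Arc at -0.05 and Rasd1 at 0.15 had intervals that hold 0. Of the 7 genes, 3 were 2-fold or more lower (0.98% of all genes) and 0 were 2-fold or more higher (2.06%). With these cells also thinned to 1500 UMIs, Gem was the 1 member past 2-fold. The P27NULL cells with Xist, set against the same WT cells, had 0 members past 2-fold in either direction (0.577% of genes higher and 0.835% lower), with Gem at -0.46, Nr4a1 at -0.58, Rasd1 at 0.59 and Arc at 0.62. That last comparison crosses the sexes and is given for its size only.

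Cells of the single P27NULL library could also be set against each other. All 7 genes were higher in cells with Xist than in cells without, by a log2 ratio of 1.76 for Gem (1.59 to 1.93), 0.83 for Nr4a1 (0.61 to 1.04), 0.70 for Egr4, 0.68 for Arc, 0.45 for Rasd1, 0.32 for Egr1 and 0.19 for Tmem158 (0.08 to 0.29). The median was 0.68, against -0.11 for all genes. Gem alone passed 2-fold, among 0.649% of genes that were that much higher, and 0 members were that much lower (2.12% of genes). At 1500 UMIs a cell the median was 0.43 and Gem was at 1.77. The library was a pool, so sex, animal and genotype of the individual mice cannot be told apart in it.

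S2CK was set against P27NULL because these mice differ by the loss of 1 Sox2 copy in Sox9-expressing cells and their descendants. This comparison shares the P27NULL library with the one above, and its all-gene median was -0.16 at this scaling. Rasd1 was at -1.43 (-1.63 to -1.23), Nr4a1 at -1.42 (-1.60 to -1.24) and Arc at -1.32 (-1.50 to -1.15). Gem was at -0.60 and Egr4 at -0.43, while Tmem158 was at 0.71 (0.65 to 0.77). Egr1 was at -0.10 and changed sign, to between 0.023 and 0.056, under each of the other scalings tried. Rasd1, Nr4a1 and Arc were 2-fold or more lower, as were 3.19% of genes, and 0 members were 2-fold or more higher (1.14% of genes). Against the P27NULL cells with Xist alone, all 6 genes other than Tmem158 were further apart: Nr4a1 at -2.03, Arc at -1.83, Rasd1 at -1.76, Gem at -1.75, Egr4 at -0.95 and Egr1 at -0.35. There 4 members were 2-fold or more lower (2.83% of genes) and 0 were 2-fold or more higher (2.62%). The sum of all 7 was 0.04 higher in S2CK than in P27NULL on the log2 scale, and 0.39 lower against the cells with Xist (log2 ratio -0.39). The sum includes Tmem158, which was higher in S2CK in both comparisons.

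Between S2CK and WT, which differ in p27, Sox2 and sex, Nr4a1 was at -2.60 (-2.78 to -2.42) and Gem at -2.21 (-2.33 to -2.10). Only 8 of 11686 genes had a lower ratio than Nr4a1, and 20 a lower one than Gem. Egr4 was at -1.24, Arc at -1.21, Rasd1 at -1.17, Egr1 at -0.37 and Tmem158 at 0.13. Thus 5 members were 2-fold or more lower, as were 2.09% of genes, and 0 were 2-fold or more higher, as were 1.79%.

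**Figure D2:**
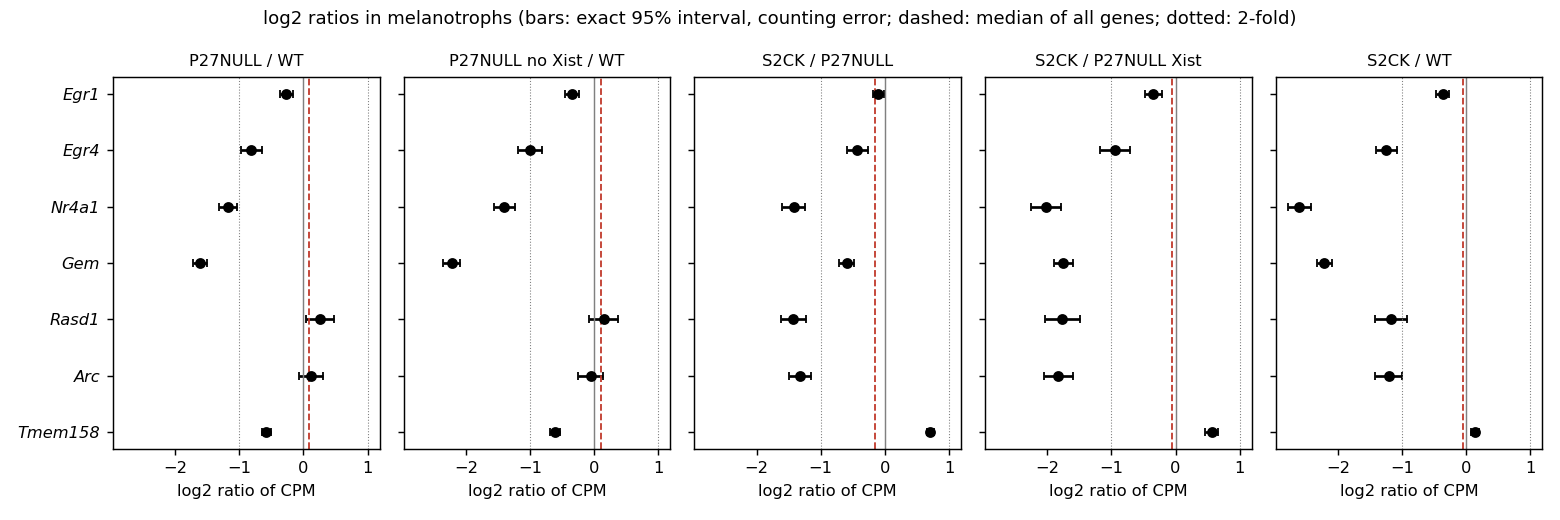
Log2 ratio of CPM in melanotrophs (horizontal axis) for each gene in 5 comparisons; points are ratios, bars exact 95% intervals for counting error, the dashed line the median of all genes and the dotted lines 2-fold. Gem lies at -2.22 in P27NULL cells without Xist against WT and at -1.75 in S2CK against P27NULL cells with Xist, and Tmem158 lies at 0.71 in S2CK against P27NULL.

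The libraries fell largely into different joint clusters (clustered without these genes, other immediate early genes, Pomc and sex-linked genes), so the levels were also taken inside clusters that hold cells of more than 1 library. Cluster 4 held 43.6% of WT and 31.4% of P27NULL melanotrophs. Inside it Gem was at 269 CPM in WT (543 cells) and 83.5 in P27NULL (1092 cells), and Nr4a1 at 153 and 57.6 CPM. Cluster 10 held 59.2% of S2CK melanotrophs, 9.40% of WT and 3.10% of P27NULL. There Gem was at 237, 86.3 and 64.2 CPM in WT (117 cells), P27NULL (108 cells) and S2CK (1758 cells), and Arc at 81.4, 78.2 and 25.1 CPM. Tmem158 was at 551, 291 and 515 CPM in the same cells. Nr4a1 was at 79.0, 35.1 and 20.5 CPM there. The order of the libraries inside these clusters was thus that of all melanotrophs for Gem and Nr4a1, while Arc and Tmem158, highest over all melanotrophs in P27NULL and in S2CK respectively, were highest in WT in cluster 10.

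Within a library the genes did not all move together with depth or with Pomc. In WT, Nr4a1 was at 82.3 CPM in the 415 melanotrophs with the fewest UMIs and at 152 CPM in the 415 with the most, whereas Egr4 was at 147 and 58.7 CPM and Tmem158 at 531 and 351. Egr4 in WT was at 119 CPM where the Pomc share was lowest and 47.3 where it was highest, and Gem at 237 and 278. Gem was at 328 CPM in the WT cells with the least mitochondrial RNA and 208 in those with the most, but at 89.4 and 88.9 CPM in P27NULL. The gradients were not the same in each library. By depth, Nr4a1 was at 64.3 and 56.9 CPM in P27NULL and 22.3 and 21.6 in S2CK, from the fewest to the most UMIs. Egr4 fell with depth there too, from 73.4 to 40.1 and from 49.5 to 29.6, as did Tmem158. By Pomc share Egr4 rose from 40.6 to 56.5 CPM in P27NULL and was at 37.9 and 36.3 in S2CK. Within a library, depth and mitochondrial share thus moved with some of these genes. Their part in the ratios was tried by thinning and by keeping cells with 5 to 7% mitochondrial UMIs. In those cells the sum was at a log2 ratio of -0.75 in P27NULL against WT and -0.55 in S2CK against WT.

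Joint detection asks whether the same melanotrophs carry several of the genes. It was counted at 1500 UMIs a cell, in 1216 WT, 3161 P27NULL and 2949 S2CK cells, leaving out 29, 320 and 19 shallower ones. Cells with a UMI of both genes of a pair were set over the number expected if the genes were detected independently. Over all 21 pairs the ratio of observed to expected was 1.09 in WT (940 against 859), 1.27 in P27NULL (1432 against 1125) and 1.16 in S2CK (849 against 734). Egr4 and Arc were found together in 21 WT cells against 9.65 expected, a ratio of 2.18 (interval 1.35 to 3.33), in 33 P27NULL cells (1.88) and in 7 S2CK cells (1.45, interval 0.58 to 2.99). Egr1 and Egr4 gave 1.46, 1.58 and 1.49 in WT, P27NULL and S2CK, with intervals above 1 in all of them. Egr1 and Nr4a1 gave 1.33, 1.33 and 1.52, and Egr1 and Arc 1.06, 1.66 and 1.82. Egr4 and Gem were near independence in WT (0.85) and S2CK (0.88) and together in 48 P27NULL cells against 21.5 expected (2.24, interval 1.65 to 2.96). Tmem158 was at 1.05, 1.14 and 1.07 with the other 6 genes in WT, P27NULL and S2CK. Rasd1 with the others was at 0.97 in WT, 1.16 in P27NULL and 1.14 in S2CK. These are counts in sparse data from 1 library each. The interval of most single pairs holds 1 in WT and in S2CK, but not in P27NULL.

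**Figure D3:**
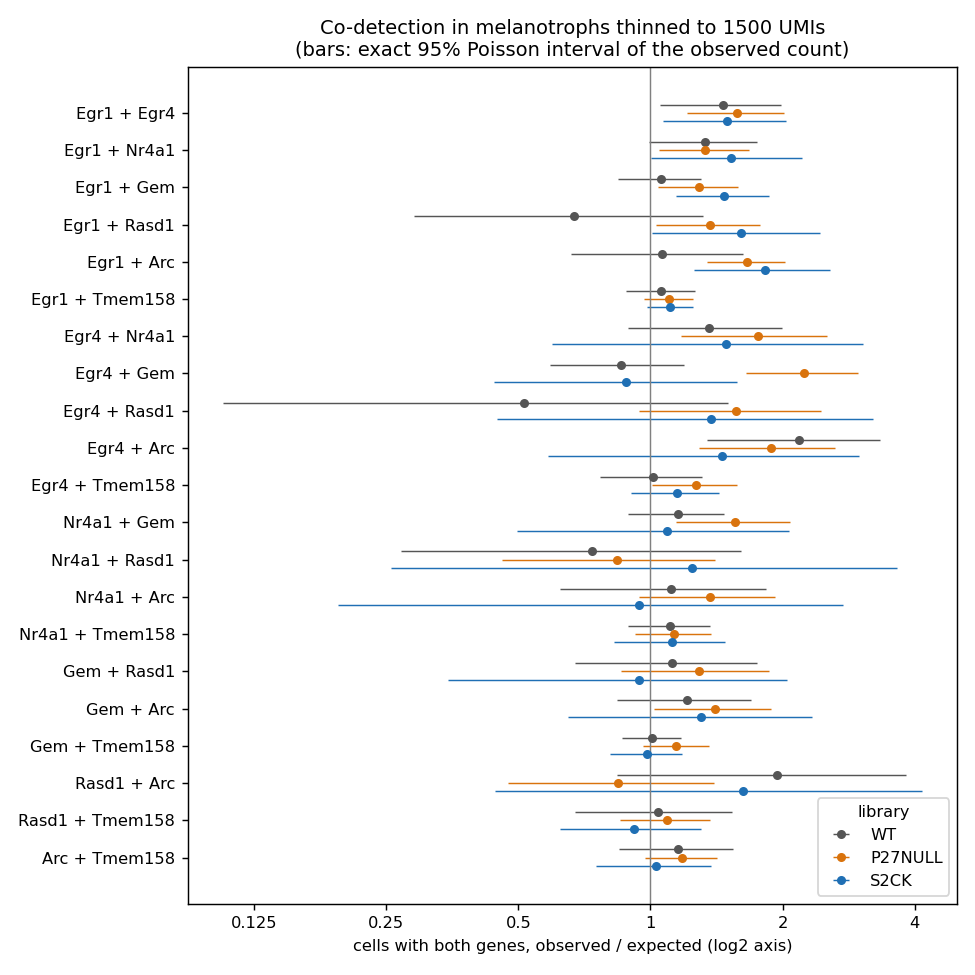
Cells with both genes of a pair, observed over expected (horizontal log2 axis), for the 21 pairs in WT (grey), P27NULL (orange) and S2CK (blue) at 1500 UMIs a cell; bars are exact 95% Poisson intervals of the observed count. Egr1 with Egr4 lies between 1.46 and 1.58 in every library, and Egr4 with Gem at 2.24 in P27NULL but below 1 in WT and S2CK.

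Within P27NULL the ratio over all pairs was 1.10 in cells with Xist and 1.28 in cells without. The excess was thus also present among cells without Xist alone. Counted per cell, 162 WT melanotrophs (13.3%) had 3 or more of the 7 genes at 1500 UMIs, where 144 were expected from independent detection. In P27NULL 236 cells (7.47%) had 3 or more, against 155 expected, and in S2CK 112 (3.798%), against 77.4. Cells without any of the 7 made up 23.1% of WT, 39.2% of P27NULL and 37.6% of S2CK melanotrophs, in each library more than the 20.5%, 34.4% and 35.1% expected. The genes were thus spread over many melanotrophs with more cells than expected at both ends of the distribution, and 0 cells had all 7. Since joint detection in these libraries was part of how the genes were chosen, nothing is read from this excess or from the pair ratios.

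**Figure D4:**
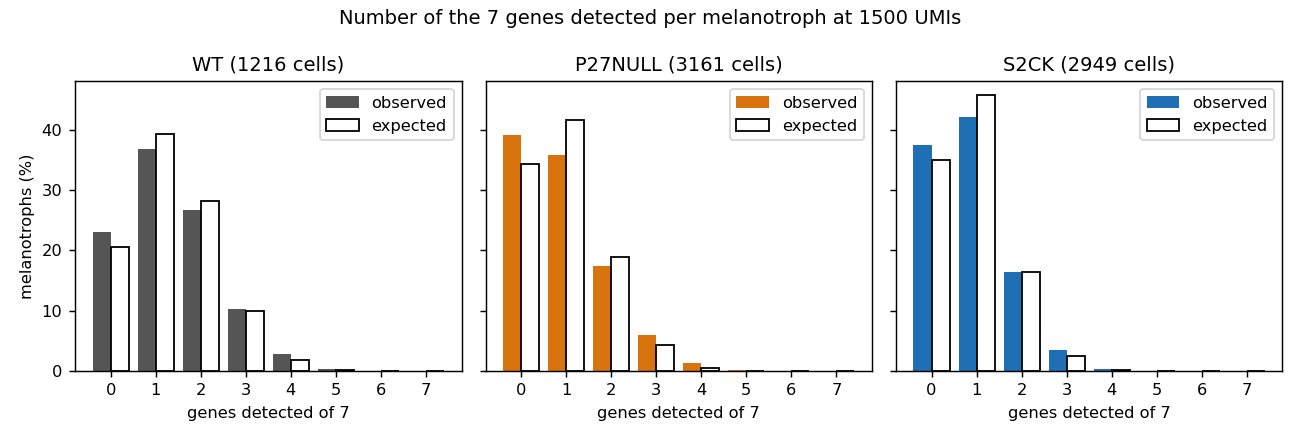
Percent of melanotrophs (vertical axis, from 0) by the number of the 7 genes detected at 1500 UMIs, observed (filled) and expected from independent detection (open), in each library. The observed share without any of them is 23.1% in WT, 39.2% in P27NULL and 37.6% in S2CK, above the expected bar in each panel.

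The genes detected most often in the same melanotrophs as the 7 were ranked by the lowest of their observed over expected ratios in the 3 libraries, over 8200 genes with at least 20 expected joint detections in each. The median gene stood at 1.01 in WT, 0.994 in P27NULL and 1.001 in S2CK, and the 99th percentile at 1.35, 1.30 and 1.27. Flrt3, a cell adhesion molecule that binds FGF receptors, led with a lowest ratio of 1.27, followed by Zfp36 (1.26), which encodes the mRNA-destabilising protein tristetraprolin and is itself an immediate early gene. Taf5, a subunit of the general transcription factor TFIID, was at 1.24, Tbc1d31 at 1.20, Zfp235 at 1.19, and Zfp474, Vti1a, Prkaa2, Aldh3b1 and Slc27a2 between 1.17 and 1.18. Measured in the same way against the other 6, Arc reached 1.26, Nr4a1 1.17, Egr4 1.15 and Egr1 1.12, while Tmem158, Gem and Rasd1 stood at 1.05, 1.04 and 0.97. The points share cells and depth, and the ranking is a description.

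Other cells of the lobe were named from joint clusters by marker genes. By the median of the 3 library levels, melanotrophs had the highest level of Egr4 and Tmem158 of 10 cell types. The lowest melanotroph level of Egr4, 37.2 CPM in S2CK, was above the highest elsewhere, 30.9 CPM in pituicyte-like cells, but that value rests on 2 UMIs (interval 3.74 to 112). For Tmem158 the ranges touched, with 279 to 456 CPM in melanotrophs and 99.3 to 341 in connective tissue-like cells. Free RNA from broken melanotrophs can reach other droplets, and Pomc was at 1761 to 52412 CPM in the types other than corticotroph-like cells, which make Pomc themselves. In a type that does not make Pomc, its Pomc UMIs give the number of UMIs of another gene that such RNA would carry along. In stem cell-like cells Tmem158 was at 0.99, 1.41 and 0.98 times that number in WT, P27NULL and S2CK, so its level there was near the background of free melanotroph RNA. In connective tissue-like cells it was at 1.06, 1.47 and 2.44 times that number. In the 60 Pou1f1 lineage-like cells of WT, with a median of 4326.5 UMIs, 0 Egr4 UMIs were found, which allows a level of up to 11.1 CPM.

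Rasd1 had the opposite distribution. It was at 733, 408 and 674 CPM in the WT, P27NULL and S2CK corticotroph-like cells, 490, 765 and 306 CPM in Pou1f1 lineage-like cells and 114, 366 and 192 CPM in gonadotroph-like cells, all hormone cells of the anterior lobe, against 18.1 to 48.8 CPM in melanotrophs. A UMI of it was found in 68.5% of WT corticotroph-like cells at a median of 2584 UMIs and in 12.7% of WT melanotrophs at 4298. Just outside the rule, cells with Pomc at 5% or more and fewer than 2 Pcsk2 UMIs held Rasd1 at 528, 175 and 220 CPM (54, 48 and 63 cells). The few Rasd1 UMIs of melanotrophs thus sat beside a much higher level in neighbouring types. Egr1 was broad: corticotroph-like cells were at 252, 391 and 340 CPM, stem cell-like cells at 250, 575 and 259, and melanotrophs came 6th of 10 by the median. T or NK-like cells held 0 Egr1 UMIs in 31, 13 and 29 cells, which allows up to 60.4, 104 and 41.5 CPM. Arc was at 41.7, 200 and 78.3 CPM in corticotroph-like and 41.3, 96.6 and 38.1 CPM in stem cell-like cells, ranges that overlap the 24.1 to 60.4 CPM of melanotrophs. Nr4a1 at 96.6, 133 and 44.2 CPM and Gem at 100, 142 and 13.6 CPM in corticotroph-like cells overlapped their melanotroph ranges too. In WT, Gem was at 272 CPM in melanotrophs and at most 106 CPM in any other type.

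**Figure D5:**
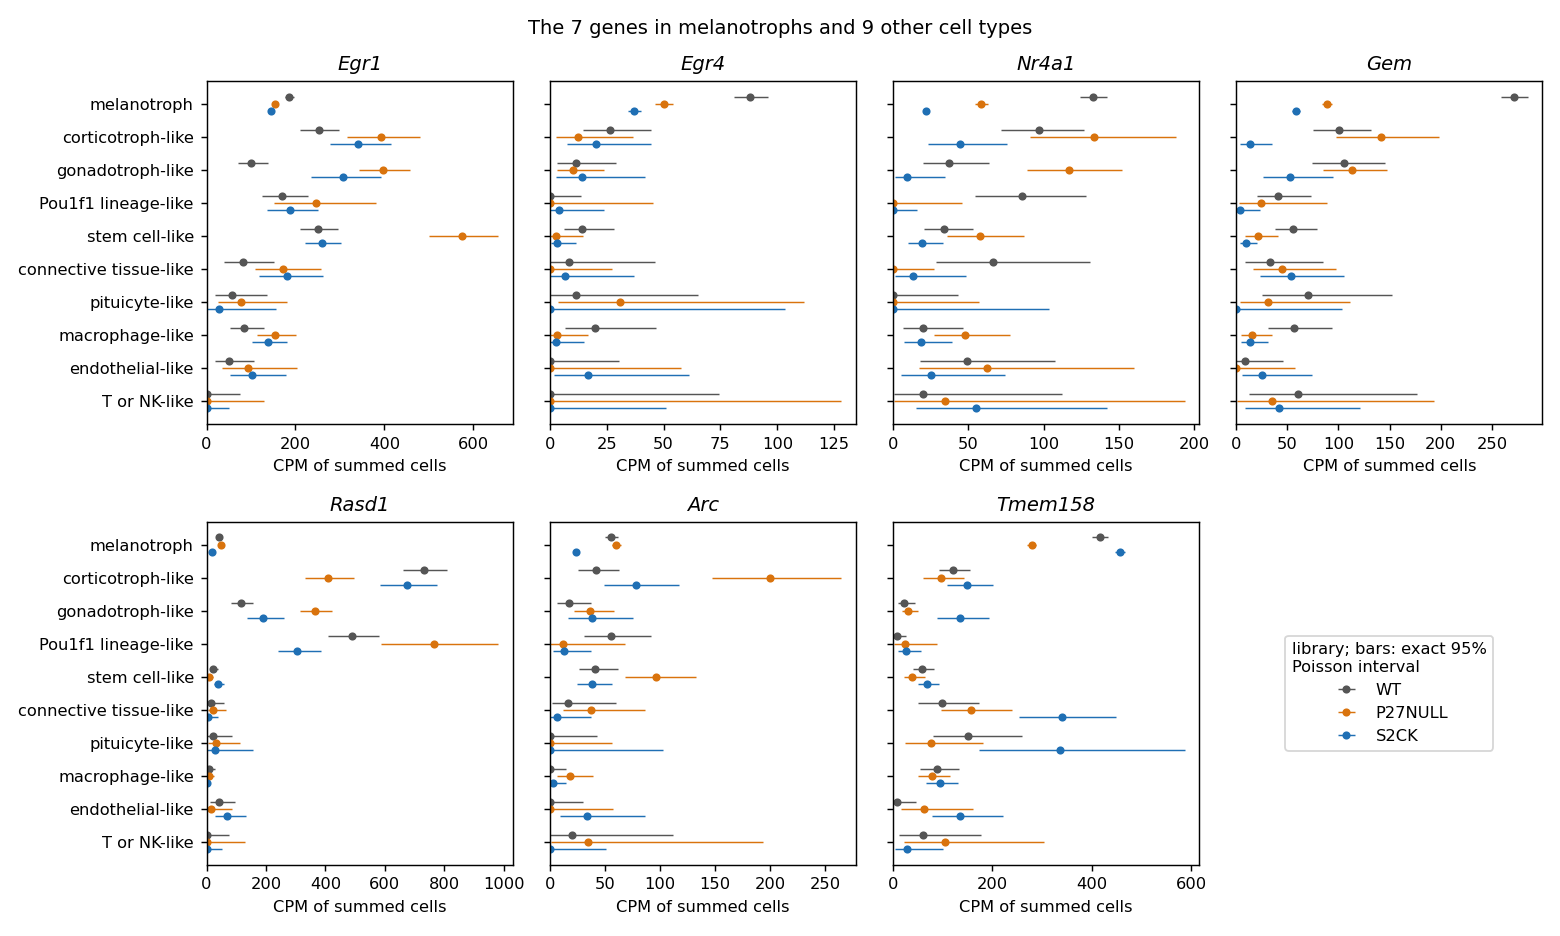
CPM of the summed cells (horizontal axis, from 0) for each gene in melanotrophs and 9 cell types named by markers, in WT (grey), P27NULL (orange) and S2CK (blue); bars are exact 95% Poisson intervals. Tmem158 and Egr4 are highest in melanotrophs, at 279 to 456 and 37.2 to 88.2 CPM, and Rasd1 in corticotroph-like and Pou1f1 lineage-like cells, at 306 to 765 CPM.

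At the edge of the rule, WT cells with Pomc between 5 and 7% of UMIs held all 7 genes at 1238 CPM, P27NULL cells at 617 and S2CK cells at 668 (66, 169 and 121 cells). Cells just outside, with Pomc between 3 and 5% and 2 or more Pcsk2 UMIs, held 1196, 524 and 857 CPM (24, 64 and 35 cells). Markers of other cell types were also found in melanotrophs. Those of stem cells summed to 124, 90.6 and 78.4 CPM in the WT, P27NULL and S2CK libraries against 10046, 8730 and 5501 CPM in stem cell-like cells. Those of gonadotrophs summed to 245, 72.7 and 68.7 CPM, highest in WT, against 176238, 56684 and 65257 CPM in gonadotroph-like cells. Markers of corticotrophs other than Pomc and Tbx19 summed to 6.97, 2.83 and 6.15 CPM against 51.2, 45.8 and 85.1 in their own cells, and their part in the ratios was not tested beyond leaving out cells with such markers.

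The other immediate early transcription factors (23 genes, some of which the study itself singled out in stem cells) had negative median log2 ratios in each comparison between libraries. In P27NULL against WT 0 of 20 measured were 2-fold or more higher (1.77% of all genes) and 4 lower (Fosl2, Npas4, Ier3, Csrnp1; 0.667% of all genes), with a median of -0.44 against 0.08 for all genes. In S2CK against P27NULL, Klf2 was 2-fold higher (1.14% of all genes) and Fosb, Egr2 and Atf3 lower (3.19%), of 20, with a median of -0.44 against -0.16. In S2CK against WT 0 of 19 were 2-fold or more higher (1.79% of all genes) and 9 lower (2.09%), and the median was -0.96 against -0.06. These shares and medians of all genes are the background for every list below. P27NULL cells with Xist lay closer to WT by the median, which was -0.11 over 16 measured (-0.016 for all genes). In sign 6 were higher and 10 lower, of which 0 and 3 were past 2-fold, against 0.577% and 0.835% of all genes. Fos, the AP-1 subunit, was at 1228, 842 and 452 CPM in the WT, P27NULL and S2CK melanotrophs, and at 1289 and 715 CPM in P27NULL cells with and without Xist. Its partner Junb was at 1053, 577 and 511, Ier2 at 1068, 743 and 549, and Jund, which is expressed more constantly, at 696, 620 and 612 CPM. Fosb, Jun, Egr3 and Atf3 were 2-fold or more higher in P27NULL cells with Xist than in those without (0.649% of all genes), Klf10 was lower (2.12%), and the median of the 17 measured was 0.59 against -0.11 for all genes.

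Effector genes that respond to calcium and cAMP had a median of -0.06 in P27NULL against WT, where that of all genes was 0.08. Of 24 measured, 0 were 2-fold higher and 2 lower (Sik1 and Dusp1), against 0.667% of all genes lower. The median was -0.33 in S2CK against P27NULL (0 of 25 higher and 1 lower, Per2) where all genes had -0.16, and -0.35 in S2CK against WT (0 of 23 higher and 5 lower, against 2.09% of all genes lower) where all genes had -0.06. Dusp1, a phosphatase of MAP kinases, was at 427, 164 and 105 CPM in the WT, P27NULL and S2CK melanotrophs, and the phosphodiesterase Pde10a at 270, 169 and 110. Gadd45b, a stress sensor, was at 143, 88.97 and 109 CPM, and Scg2, which makes the granule protein secretogranin II, at 975, 1121 and 908. Genes that report ERK output had 0 of 8 past 2-fold in P27NULL against WT, Etv5 lower of 10 in S2CK against P27NULL, and Etv5 and Phlda1 lower of 10 in S2CK against WT. Etv5 was at 16.2, 20.8 and 6.80 CPM, Etv1 at 357, 488 and 308, Spry1 at 31.4, 19.95 and 21.3 and Spry2 at 60.6, 67.2 and 68.7.

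Upstream of the genes, kinases and transcription factors had Mef2c, a calcium-responsive factor, as their 1 member 2-fold or more lower in each of the 3 comparisons and 0 higher, of 22, 23 and 23 measured (medians 0.10, -0.29 and -0.16, against 0.08, -0.16 and -0.06 for all genes). Mef2c was at 38.7, 18.5 and 7.39 CPM in the WT, P27NULL and S2CK melanotrophs. Of the 4 with the most UMIs, Prkar1a, the regulatory subunit of protein kinase A, was at 289, 344 and 299 CPM and its catalytic partner Prkaca at 86.7, 91.5 and 64.1. Map2k2 was at 111, 121 and 99.2 CPM and Mef2a at 51.4, 45.5 and 40.4. The calcium channel subunits that Gem acts on had 0 of 11 past 2-fold in P27NULL against WT and in S2CK against WT, and Cacna1d lower in S2CK against P27NULL (medians 0.27, -0.14 and -0.46, against 0.08, -0.06 and -0.16 for all genes). Cacna1d, a pore subunit, was at 156, 218 and 89.3 CPM, Cacna1a at 33.1, 47.4 and 33.5, Cacnb3 at 57.1, 68.6 and 51.7, and Cacna2d1 at 105, 110 and 89.1. Of the nearest relatives of Gem and Rasd1, Rem2 was at 30.0, 27.2 and 30.6 CPM and Rasd2 at 11.5, 15.7 and 10.3. Rrad and Rem1 were at 3.4 CPM or less in every library, and Rrad, from 81 UMIs in all, was the 1 of 3 measured to be 2-fold higher in S2CK.

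The dopamine and Gi list had Adcy1 2-fold lower of 16 in P27NULL against WT, Kcnj6 of 15 in S2CK against P27NULL, and 0 of 15 in S2CK against WT. Drd2, the dopamine receptor that restrains melanotrophs, was at 97.9, 140 and 108 CPM in the WT, P27NULL and S2CK melanotrophs, Gnai2 at 145, 150 and 155, Gnb1 at 124.98, 162 and 166, and Gnai1 at 58.5, 61.6 and 67.4. Glucocorticoid targets, listed because Rasd1 is one, had Per1 2-fold lower of 7 in S2CK against WT and 0 in the other comparisons. Tsc22d3 was at 25.4, 26.1 and 26.5 CPM, Ddit4 at 25.6, 38.2 and 27.7, Errfi1 at 36.5, 29.3 and 21.8, and Klf9 at 22.7, 17.5 and 22.8. The partners of Arc in endocytosis had 0 of 6 past 2-fold in each comparison, with Ap2m1 at 63.1, 97.0 and 59.3 CPM, Dnm3 at 37.0, 40.6 and 25.4, Dnm2 at 33.9, 33.3 and 26.9, and Sh3gl2 at 25.8, 30.2 and 22.1. Heat shock genes, which warm dissociation can raise, had Hspa1a and Hspa1b 2-fold lower of 11 in P27NULL against WT, Hsph1 in S2CK against P27NULL and 4 of 11 in S2CK against WT (medians -0.08, -0.29 and -0.35, against 0.08, -0.16 and -0.06 for all genes, of which 0.667%, 3.19% and 2.09% were 2-fold lower). Hspa1a was at 9.08, 2.46 and 3.07 CPM, while Hspa8 was at 839, 925 and 754, Hsp90ab1 at 1493, 1516 and 1465, Hspe1 at 701, 690 and 555, and Hspd1 at 248, 282 and 210. WT thus had the highest level of the inducible Hspa1a as well as of Gem and Nr4a1, and the part of dissociation in the levels of the 7 genes was not tested.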

How the data were processed

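Single-cell libraries of dissected intermediate lobes (WT, P27NULL, S2CK, 1 per genotype) were read from the tables of raw UMI counts per gene and cell that the authors deposited. The submitters' processing notes name Cell Ranger 3.0.2, STAR 2.5.1b, R 3.6.0, Seurat 3 and mm10. All deposited barcodes were kept, since the tables already hold cells of at least 213 genes and at most 10.0% mitochondrial UMIs. No doublet caller was run. Depth was 8332285 UMIs in WT, 15588317 in P27NULL and 19239147 in S2CK. The genes and lists were chosen with earlier results of these data known.

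UMIs were summed over the cells of a class and divided by their total (CPM). Intervals are 95%: exact Poisson for CPM, exact conditional binomial for log2 ratios and Clopper-Pearson for shares, and the limit at a count of 0 is 3 counts over the total of the library's cells of that type. With 1 library per genotype no test was run. All-gene values use genes with 50 or more UMIs in the compared sums. Cells were clustered jointly with scanpy 1.11.5 (2000 variable genes, 20 components, 20 neighbours, Leiden at resolution 1) in Python 3.11.15, and clusters were named from fixed marker lists with at least 3 markers detected. For joint detection each cell was thinned to 1500 UMIs. All 7 genes are described, and of each other list the 4 genes with the most melanotroph UMIs, with counts of those past 2-fold. The genes named among those counts, and the levels of Mef2c and Hspa1a, were chosen after their values were seen. TMM factors came from edgeR 4.0.16 and size factors from DESeq2 1.42.0, as scalings only. Calculations were tested on simulated data. Gene positions and promoters are RefSeq on GRCm38.p6.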

Additional observations from a re-analysis of the deposited data

Results flagged for a closer look

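In 13 of 189 comparisons of a gene in another cell type, its log2 ratio had an interval on the opposite side of 0 from the interval in melanotrophs. The 189 include comparisons that could not be flagged, because a count was 0 or the melanotroph interval holds 0. The share of all genes that would be flagged in this way was not computed, so nothing is read from the count. The difference between the cell types was not tested, and each value rests on 1 library per genotype.

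Egr1 accounted for 7 of them. In P27NULL against WT it was at 1.99 in gonadotroph-like, 1.20 in stem cell-like, 0.86 in macrophage-like and 0.64 in corticotroph-like cells, against -0.27 in melanotrophs. In S2CK against WT it was at 1.61 in gonadotroph-like, 1.12 in connective tissue-like and 0.43 in corticotroph-like cells, against -0.37 in melanotrophs. Rasd1 was at -0.85 in corticotroph-like cells in P27NULL against WT, where melanotrophs were at 0.26. In S2CK against P27NULL it was at 0.72 in corticotroph-like cells and 2.34 in stem cell-like cells, the latter from 25 and 3 UMIs, against -1.43 in melanotrophs. In S2CK against WT it was at 0.74 in gonadotroph-like cells and -1.17 in melanotrophs. Nr4a1 was at 1.66 in gonadotroph-like cells in P27NULL against WT (57 and 13 UMIs) and -1.18 in melanotrophs. Arc was at 0.91 in corticotroph-like cells in S2CK against WT (23 and 22 UMIs) and -1.21 in melanotrophs.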

How the results depend on the processing

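No paired analysis was possible because each genotype is 1 library. The direction of each gene in P27NULL against WT was kept in 15 of 15 alternatives except for Arc (13 of 15). In S2CK against P27NULL it was kept in 15 of 15 except for Egr1 (11 of 15), and in S2CK against WT, which has no within-sex value, in 13 of 13. Egr1 in S2CK against P27NULL turned to 0.037 with TMM factors, 0.056 with size factors, 0.023 when Pomc and the ribosomal protein and mitochondrial genes were taken out of the total, and 0.089 in cells with 5 to 7% mitochondrial UMIs (chosen after seeing the data, as were the fits within a sex at 1500 UMIs). The all-gene median of that comparison was -0.16 at total UMIs and -0.02 with TMM.

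For the summed genes, P27NULL against WT was -0.61 at Pomc 10% or more, -0.75 with TMM, -0.77 with size factors, -0.78 without Pomc and those genes, -0.59 at 1500 UMIs, -0.64 without the 2% deepest cells, -0.83 within a sex and -0.75 at 5 to 7% mitochondrial UMIs. In the same order S2CK against P27NULL was -0.00072, 0.18, 0.20, 0.16 and -0.010, then -0.39 within a sex, 0.21 at 5 to 7% mitochondrial UMIs and -0.42 within a sex at 1500 UMIs. S2CK against WT was -0.57 with TMM and with size factors, -0.60 at 1500 UMIs and -0.55 at 5 to 7% mitochondrial UMIs. The median of the 7 genes in P27NULL against WT was -0.66 with size factors, -0.67 without Pomc and those genes and -0.67 at 5 to 7% mitochondrial UMIs. In S2CK against P27NULL it was -0.76 at Pomc 10%, -0.46, -0.44 and -0.47 with the other scalings, -1.75 within a sex and -1.53 within a sex at 1500 UMIs. In S2CK against WT it was -1.45 at 5 to 7% mitochondrial UMIs, and for P27NULL cells with against without Xist 0.43 at 1500 UMIs. Members 2-fold or more lower in P27NULL against WT fell to 1 at 1500 UMIs and to 1 within a sex at 1500 UMIs.

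The share of all genes past 2-fold, at a minimum of 10 UMIs and with no minimum, was 4.01% and 4.26% higher and 2.49% and 5.08% lower in P27NULL against WT, 2.86% and 3.51% higher and 5.47% and 6.98% lower in S2CK against P27NULL, and 3.76% and 3.83% higher and 4.72% and 7.56% lower in S2CK against WT. Joint detection in P27NULL was 1.21 over all pairs at 3000 UMIs and 1.10 in cells with Xist (1.28 without), where Rasd1 with the others was at 0.90 and Tmem158 at 0.98. With cells that meet the melanotroph rule left out of every other type, melanotrophs ranked 5 for Egr1 and 2 for Gem. The causes of these shifts were not tested.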
